A study of Mus musculus with 2 samples.

Results

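The 7 genes that encode the subunits of the NMDA receptor, Grin1, Grin2a, Grin2b, Grin2c, Grin2d, Grin3a and Grin3b, were chosen by name from the 21938 protein-coding genes of the mouse annotation, and their chromatin accessibility was described in the adult cerebral cortex. The locus of a gene was its GENCODE gene body on mm10 with 10 kb on either side, and its promoters were the stretches within 500 bp of each annotated transcription start site (TSS). The left cortex of 2 female B6CASTF1/J mice, an F1 hybrid of C57BL/6J and CAST/EiJ, was taken at 2 months of age, with no treatment or engineered allele named in the labels. DNase-seq, in which nuclei are lightly cut with DNase I and the freed DNA ends are sequenced so that cuts mark open chromatin, gave 1 library per animal. The libraries are biological replicates 1 and 2 from separately numbered females that share a donor entry, and they form a single group, so there is no contrast between conditions.

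Typical NMDA receptors are glutamate-gated cation channels, built with GluN2 subunits. They open only when glutamate and a co-agonist, glycine or D-serine, are bound and depolarization has relieved a magnesium block. The GluN1 subunit, encoded by Grin1, is present in every receptor, and it assembles with GluN2 subunits (Grin2a to Grin2d), which bind glutamate and set the channel's kinetics, or with GluN3 subunits (Grin3a and Grin3b), which bind glycine. In the forebrain GluN2B prevails early and GluN2A increases after birth, whereas GluN2C is best known from cerebellar granule cells and astrocytes and GluN2D and GluN3A from early development and particular interneurons.

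Depth was read from the smallest step of the signal values, taken as 1 cut per 1 M. That gave 206 M cuts for replicate 1 and 208 M cuts for replicate 2. The authors' larger lists held 128323 and 119651 peaks, which merged into 154220, of which 80522 (52.2%) were found in both libraries and are called shared. Markers of the labelled tissue had shared promoter peaks at 6 of 6 genes of cortical excitatory neurons and 4 of 4 of inhibitory neurons, and so did 3 of 4 astrocyte and 2 of 4 oligodendrocyte markers, while 0 of 2 microglial, 0 of 2 endothelial, 0 of 2 cerebellar (Gabra6, En2) and 0 of 4 markers of other tissues (Alb, Hnf4a, Myod1, Krt5) did. Some markers without a shared promoter peak had one in a single library. These were En2 in replicate 1 (0.877), and Cx3cr1 (0.298), Csf1r (0.499) and Cldn5 (0.490) in replicate 2. Mean promoter signals of the inhibitory markers ran from 0.543 to 0.900. In bulk tissue, a site open in fewer cells and a site less open in each cell cannot be told apart.

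Weak peaks, in most windows those of 1 animal, crowded parts of 3 of the loci, and this bears on the counts that follow. In fixed windows of 50 kb, those with at least 5 peaks of signal under 0.3 in a library were listed, a rule set after the values had been seen. Such windows touched the loci of Grin1, Grin2a and Grin2b, 3 of 7 (42.9%), and 8.99% of all protein-coding loci. A longer locus spans more windows, and these shares were not matched for locus length. Within Grin2a, the window chr16:9600001-9650000 held 1 peak in replicate 1 and 49 in replicate 2, of which 41 were under 0.3. The window chr16:9700001-9750000 held 17 peaks in replicate 1, of which 16 were under 0.3, and 0 in replicate 2. The animals thus differed in opposite directions at windows of the same gene. The window with the Grin2a promoter, chr16:9950001-10000000, was crowded in both, with 16 weak peaks in replicate 1 and 14 in replicate 2. At Grin1 the window chr2:25300001-25350000 held 23 peaks in replicate 1, of which 12 were under 0.3, and 6 in replicate 2, and at Grin2b the window chr6:135850001-135900000 held 24, of which 10 were under 0.3, and 5. Counts are therefore given for shared peaks unless a library is named. Without the peaks under 0.3 in such windows, the shared peaks of the loci went from 62 to 54 and the distal ones from 39 to 31.

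**Figure D1:**
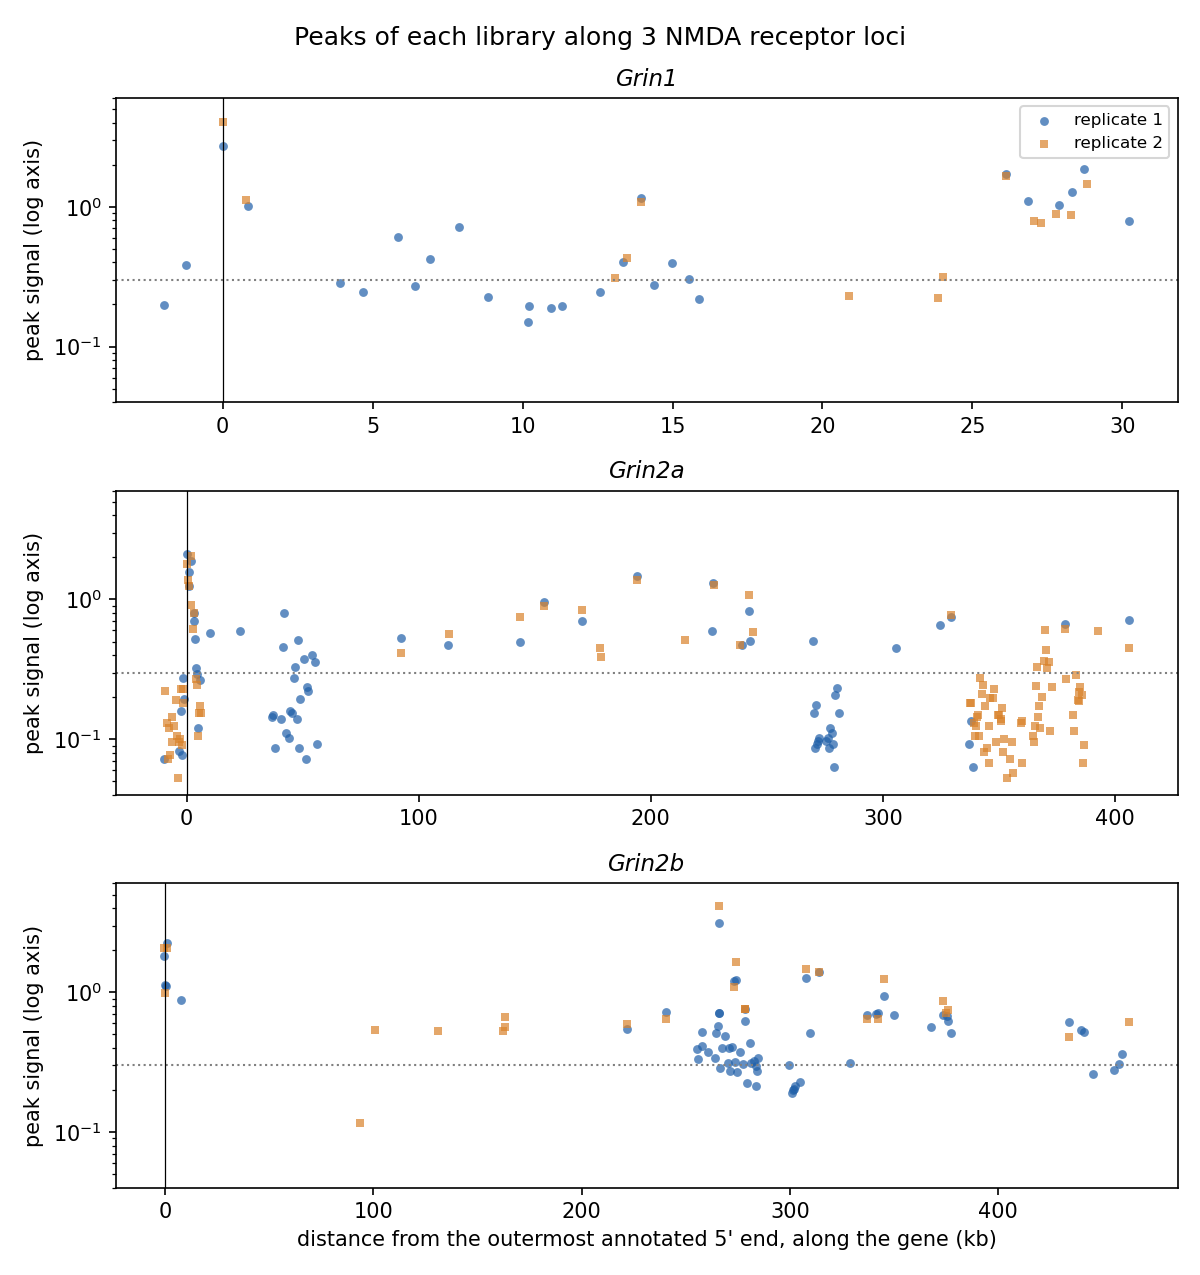
Signal of every peak of replicate 1 (circles) and replicate 2 (squares) on a log axis against its distance in kb from the outermost annotated 5′ end, along Grin1, Grin2a and Grin2b with 10 kb on either side. The dotted line marks a signal of 0.3. Peaks above 1 pair up between libraries almost throughout, whereas groups of points under the line in Grin2a belong to 1 library each, and the highest pair of Grin2b lies far inside the gene.

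Shared promoter peaks were found at 5 of the 7 genes, Grin1, Grin2a, Grin2b, Grin2d and Grin3a, where 64.1% of all protein-coding genes have one, so the share among the subunits was near the background. Their promoter signal, the height of the strongest peak in the authors' read-depth normalized units, had a median of 2.08 over these 5 genes, below the median of 2.95 over the 14063 genes with a shared promoter peak. Grin1 stood highest and Grin2d lowest. At Grin2c and Grin3b, a promoter peak was called in replicate 2 alone.

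The promoter sequences below come from peaks at these promoters, with the bases that lay inside a footprint of both libraries in capitals. A footprint is a short stretch of few cuts inside open DNA. Each sequence is on the strand of its gene, mm10, and was read outside annotated exons, so the middle Grin2a block, which is exonic and holds the replicate 2 value of that gene, is not shown; for Grin2c and Grin3b, which had no shared peak, the 120 bases before the outermost 5′ end are given.
Grin1, chr2:25319188-25319320, minus strand: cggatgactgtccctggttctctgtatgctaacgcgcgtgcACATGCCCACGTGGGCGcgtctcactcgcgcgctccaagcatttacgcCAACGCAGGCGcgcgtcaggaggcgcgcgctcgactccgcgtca
Grin2a, chr16:9995573-9995872, minus strand: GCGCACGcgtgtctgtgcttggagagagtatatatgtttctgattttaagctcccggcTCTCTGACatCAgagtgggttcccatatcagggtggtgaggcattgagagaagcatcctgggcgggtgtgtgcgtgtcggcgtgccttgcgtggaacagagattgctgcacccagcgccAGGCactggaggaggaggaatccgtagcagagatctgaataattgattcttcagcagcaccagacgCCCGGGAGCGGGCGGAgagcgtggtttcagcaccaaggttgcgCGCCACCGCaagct
Grin2b strongest promoter peak, chr6:136172181-136172480, minus strand: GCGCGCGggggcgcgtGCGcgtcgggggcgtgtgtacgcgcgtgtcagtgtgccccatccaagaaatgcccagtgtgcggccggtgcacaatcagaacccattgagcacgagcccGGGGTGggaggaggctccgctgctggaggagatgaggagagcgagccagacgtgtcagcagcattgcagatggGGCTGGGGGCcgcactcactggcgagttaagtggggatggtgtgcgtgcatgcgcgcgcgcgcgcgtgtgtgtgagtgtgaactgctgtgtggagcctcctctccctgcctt
Grin2b peak before the outermost 5′ end, chr6:136173581-136173780, minus strand: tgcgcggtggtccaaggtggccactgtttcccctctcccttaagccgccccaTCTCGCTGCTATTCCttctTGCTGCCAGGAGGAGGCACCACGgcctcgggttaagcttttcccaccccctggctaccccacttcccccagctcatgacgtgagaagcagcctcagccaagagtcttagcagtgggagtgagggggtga
Grin2d, chr7:45870512-45870660, minus strand: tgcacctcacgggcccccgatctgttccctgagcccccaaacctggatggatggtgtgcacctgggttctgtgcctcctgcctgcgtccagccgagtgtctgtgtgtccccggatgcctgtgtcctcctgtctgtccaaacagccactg
Grin3a, chr4:49845745-49845960, minus strand: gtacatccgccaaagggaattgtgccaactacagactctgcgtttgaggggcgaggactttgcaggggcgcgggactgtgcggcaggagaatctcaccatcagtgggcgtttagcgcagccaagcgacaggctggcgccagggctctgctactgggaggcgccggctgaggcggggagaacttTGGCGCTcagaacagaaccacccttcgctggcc
Grin2c, chr11:115267244-115267363, minus strand: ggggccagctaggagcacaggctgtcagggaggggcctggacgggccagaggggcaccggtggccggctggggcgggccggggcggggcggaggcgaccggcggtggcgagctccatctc
Grin3b, chr10:79970595-79970714, plus strand: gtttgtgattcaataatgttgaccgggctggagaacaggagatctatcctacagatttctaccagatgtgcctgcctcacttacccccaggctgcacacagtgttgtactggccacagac
Stretches longer than 300 bases were cut to the 300 with the most footprinted bases, as at Grin2a and the strongest Grin2b peak. The stretches also differ in length, so their counts do not rank the promoters. The Grin1 stretch held 28 footprinted bases in 2 runs, that of Grin2a 46 in 6 runs, and those of Grin2b 26 in 4 runs and 38 in 2 runs. The Grin3a stretch held 7 in 1 run, but it covered 216 bases of a 1660 bp peak that had 4 shared footprints in each library. The Grin1 stretch likewise covered 133 bases of a 280 bp peak. The Grin2d stretch held 0, as did the stretches before Grin2c and Grin3b.

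Grin1, the obligatory subunit (chr2:25291181-25319187, minus strand), had its promoter peak at chr2:25319041-25319320 over the cluster of 5′ ends of its coding transcripts. The signal there was 2.71 in replicate 1 and 4.02 in replicate 2, a mean of 3.37 ± 0.924 (SD, n = 2), which lies at percentile 57.6 of all shared promoter peaks of protein-coding genes. This was the widest gap between the animals at any of the 5 promoters. The lowest FDR of the cut rate in the peak ran the other way, at 1.95e-216 in replicate 1 and 3.15e-21 in replicate 2, and the crowded window of replicate 1 covers this promoter. The animals thus ordered differently by height and by FDR.

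Accessibility at Grin1 was not limited to its 5′ end. A shared peak in intron 1 at chr2:25318147-25318635 had a signal of 1.01 and 1.11, and an internal start of 2 noncoding Grin1 transcripts at chr2:25305041-25305440 had 1.15 and 1.09. At the 3′ end, a block of 2639 bp, chr2:25289941-25292579, held 22 footprints in replicate 1 and 19 in replicate 2, of which 9 in each overlapped one of the other animal. That block overlaps the last exon of Grin1, the start of Grin1os, an antisense transcript, and nearly all of the neighbouring gene Lrrc26, so its signal of 1.87 and 1.45 cannot be given to 1 of these genes. Base pairs with a listed cut-rate FDR in both libraries made up 9.24% of the locus, percentile 97.5 among 200 protein-coding genes with loci of nearest length. Replicate 1 listed 15852 bp and replicate 2 5795 bp there.

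Grin2a (chr16:9567898-9995560, minus strand), which encodes a main GluN2 subunit of the adult forebrain, had the broadest promoter. Shared peaks of 1580 bp (chr16:9994321-9995900), 580 bp (chr16:9993441-9994020) and 1420 bp (chr16:9991801-9993220) followed one another across 5 annotated TSSs. The highest signal per library was 2.13 in replicate 1 and 2.04 in replicate 2, a mean of 2.08 ± 0.0605 (SD, n = 2, percentile 34.3). The animals were close, and the strongest point lay in different blocks, the outermost one in replicate 1 and the middle one in replicate 2. The outermost block held 29 footprints in each library, of which 17 and 20 overlapped one of the other, the most shared footprints of any peak in the 7 loci.

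Grin2b (chr6:135713233-136173511, minus strand), whose product carries the receptors of early development and stays in adult cortex, had 3 separate narrow promoter peaks. The strongest, chr6:136172141-136172600 in intron 1, reached 2.24 and 2.08, a mean of 2.16 ± 0.112 (SD, n = 2, percentile 35.8). The peak just before the outermost 5′ end, chr6:136173581-136173780, had 1.82 and 2.06, and that between them 1.12 and 0.994. The Grin2a and Grin2b promoters had overlapping ranges and cannot be ranked against each other.

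Grin2c (chr11:115249169-115267243, minus strand) had no promoter peak in replicate 1 and one of signal 0.658 in replicate 2, with a lowest FDR of 0.00406. The stretch before its 5′ end is nevertheless rich in CpG, with an observed to expected CpG ratio of 0.710 within 500 bp of that TSS, where genes with a shared promoter peak have a median of 0.712 and those without 0.179. By this measure the Grin2c promoter was near the median of the genes that have a shared peak.

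Grin2d (chr7:45831883-45878378, minus strand) had a weak promoter peak of 0.572 and 0.432, a mean of 0.502 ± 0.0986 (SD, n = 2), at percentile 3.52, before the start of transcript Grin2d-203. No footprint there was found in both animals, and the lowest FDR was 2.14e-06 in replicate 1 and 0.0254 in replicate 2. With the smaller peak list, or with the outermost 5′ end alone, 4 genes had a shared promoter peak, and Grin2d was not among them. A stronger peak lay 968 bp inside the gene from the start of Grin2d-201, over exon 2 of Grin2d-203 at chr7:45866021-45866300, with 1.85 and 1.99 and 4 of its footprints shared in each library. With promoters widened to 1 kb this peak becomes the promoter peak and the Grin2d value rises to 1.92, close to Grin2a and Grin2b, so its low rank rests on the promoter width.

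Grin3a (chr4:49661611-49845744, minus strand), a glycine-binding subunit best known from early postnatal brain, had a promoter block of 1660 bp at chr4:49844301-49845960 over exon 1 with 1.76 and 1.82, a mean of 1.79 ± 0.0402 (SD, n = 2, percentile 28.6). Both of its values lay below both values of Grin2a and of Grin2b. Grin3b (chr10:79970715-79977190, plus strand), known mainly from motor neurons, had a promoter peak in replicate 2 alone, with a signal of 0.523 and a lowest FDR of 0.0286, near the 0.05 bound of the list. Its promoter holds CpG at an observed to expected ratio of 0.614. In the order of levels under this promoter rule Grin1 came first, Grin2b and Grin2a next without separation, then Grin3a, and Grin2d last. With promoters of 1 kb Grin2d, at 1.92, lay above Grin3a, and with the outermost 5′ end alone the values of Grin2a (2.13 and 1.80) overlapped those of Grin3a.

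**Figure D2:**
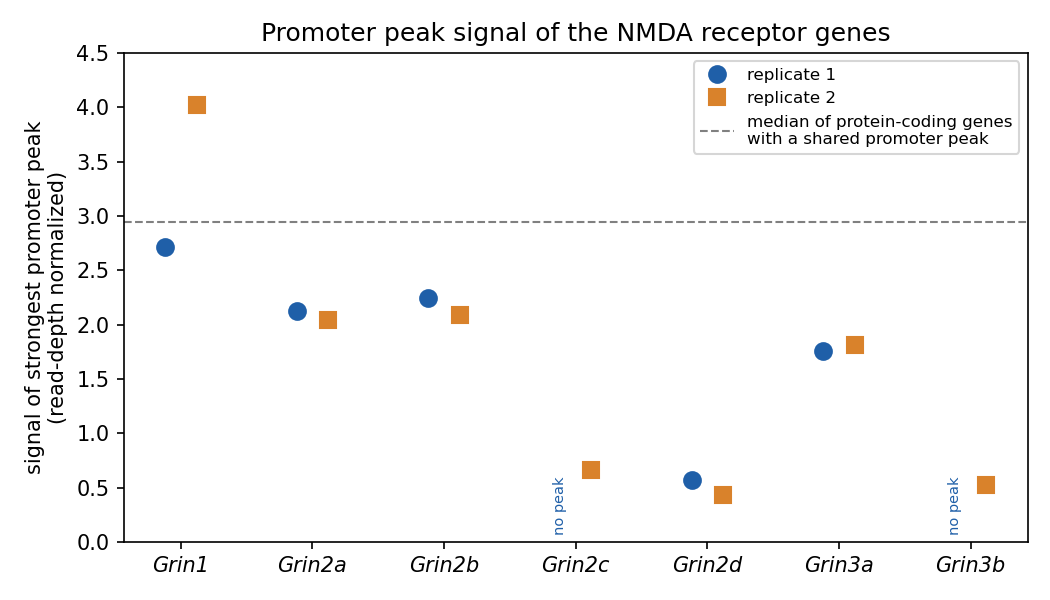
Signal of the strongest promoter peak of each gene in replicate 1 (circles) and replicate 2 (squares), with "no peak" where the larger list of a library held none. The dashed line is the median of 2.95 over protein-coding genes with a shared promoter peak, and only replicate 2 of Grin1, at 4.02, lies above it.

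Distal sites, shared peaks centred more than 1 kb from every TSS, were concentrated in the long GluN2A and GluN2B genes. At least 1 was found at 5 of the 7 genes, where 58.2% of all protein-coding genes have one. Grin2a had 18 and Grin2b 15, while Grin3a had 4, Grin1 and Grin2c 1 each, and Grin2d and Grin3b 0. Set against the 200 genes nearest in locus length, as a description, the counts lay at percentile 83 for Grin2a, 74.8 for Grin2b, 56 for Grin2c, 46.3 for Grin1, 44.5 for Grin3a, 29.3 for Grin3b and 15 for Grin2d. Locus length ranged from 26.5 kb at Grin3b to 480.3 kb at Grin2b, and the larger counts fell in the longer loci. The Grin2a count fell to 10 without the weak peaks of the crowded windows, and that of Grin2b remained 15. With the smaller peak list the counts were 11 for Grin2a and 5 for Grin2b, and the Grin2b count was 9 when each peak had to overlap the other over at least 50% of its length.

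Distal sequences are shown for the strongest distal peak of each gene that had one, since these sites carry the highest signal away from promoters. Capitals again mark bases in a footprint of both libraries, on the strand of the gene, mm10.
Grin2b intron 4, chr6:135907601-135907820: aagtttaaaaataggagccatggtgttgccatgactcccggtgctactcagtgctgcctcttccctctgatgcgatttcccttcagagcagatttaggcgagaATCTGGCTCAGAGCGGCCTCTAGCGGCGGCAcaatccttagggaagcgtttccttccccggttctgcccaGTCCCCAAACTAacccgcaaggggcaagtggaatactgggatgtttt
Grin2a intron 3, chr16:9801421-9801720: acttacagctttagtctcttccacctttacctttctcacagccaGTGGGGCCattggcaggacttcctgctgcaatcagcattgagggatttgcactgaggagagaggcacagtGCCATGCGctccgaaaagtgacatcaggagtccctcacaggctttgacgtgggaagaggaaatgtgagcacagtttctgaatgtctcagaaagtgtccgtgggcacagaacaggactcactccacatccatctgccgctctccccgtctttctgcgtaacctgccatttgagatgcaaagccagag
Grin1 intron 20, chr2:25292961-25293160: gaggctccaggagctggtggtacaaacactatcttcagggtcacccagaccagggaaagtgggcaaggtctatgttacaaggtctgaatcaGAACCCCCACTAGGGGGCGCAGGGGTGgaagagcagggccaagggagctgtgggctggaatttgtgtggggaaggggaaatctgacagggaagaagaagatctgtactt
Grin2c upstream, chr11:115270581-115270780: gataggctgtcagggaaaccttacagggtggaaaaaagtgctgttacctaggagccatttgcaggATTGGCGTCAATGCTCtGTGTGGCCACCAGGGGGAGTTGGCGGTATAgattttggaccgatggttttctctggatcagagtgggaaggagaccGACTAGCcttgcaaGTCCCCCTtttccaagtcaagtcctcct
Grin3a intron 6, chr4:49688661-49688960: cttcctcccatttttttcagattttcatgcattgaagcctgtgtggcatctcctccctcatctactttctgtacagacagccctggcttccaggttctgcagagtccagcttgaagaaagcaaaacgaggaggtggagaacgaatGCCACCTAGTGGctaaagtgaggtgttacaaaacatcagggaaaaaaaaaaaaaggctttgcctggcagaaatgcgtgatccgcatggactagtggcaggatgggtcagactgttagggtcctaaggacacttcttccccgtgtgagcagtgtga
These stretches held 43, 16, 27, 61 and 12 footprinted bases in the order listed. That of Grin3a was cut to the 300 bases with the most footprinted bases, as above.

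The highest signal anywhere in the Grin2b locus was in intron 4, 264.2 kb from the nearest TSS of the gene. The peak at chr6:135907601-135907820 had 3.13 in replicate 1 and 4.14 in replicate 2, a mean of 3.64 ± 0.711 (SD, n = 2), above each of the 3 promoter peaks of the gene in both animals. It lay at percentile 98.8 of the signal of all 53828 shared distal peaks, whose median is 0.665. Of its 5 and 3 footprints, 2 in each library were shared, and the longer run in capitals covers 31 bases. As at the Grin1 promoter, the lowest FDR was far smaller in replicate 1, 4.33e-236 against 5.28e-24, while the signal was higher in replicate 2.

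Other Grin2b sites formed a group in introns 4 and 5. Within intron 4, chr6:135899341-135899560 had 1.23 and 1.63, chr6:135859541-135859800 had 1.39 and 1.40, and chr6:135865881-135866120 had 1.26 and 1.46. Of the 15 distal sites, 7 lay in intron 4, 5 in intron 5, 2 in intron 3 and 1 in intron 11. None was in introns 1 or 2.

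In Grin2a the strongest distal sites lay in intron 3. The peak at chr16:9801421-9801720 had 1.47 and 1.38, 4.2 kb before the internal start of the noncoding transcript Grin2a-205, and that at chr16:9768341-9768660 had 1.31 and 1.27. A peak in intron 4, chr16:9753081-9753560, had 0.823 and 1.08. All 3 lay above the median distal signal in both animals. By contrast, 7 shared Grin2a peaks had a signal under 0.3 in both animals, and 6 of these lay beside the promoter blocks, between 1.5 and 2.6 kb from a TSS of the gene.

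Grin3a had 4 distal sites, with the strongest in intron 6 at 0.572 and 1.01, a mean at percentile 60.4 of all shared distal peaks. The signals of 1 Grin3a site differed 1.80-fold between animals, the widest ratio among the 62 shared peaks of the loci. The distal site assigned to Grin2c, chr11:115270581-115270780, had 2.21 and 2.69 and lay 3.4 kb before the 5′ end of Grin2c but inside the neighbouring gene Fdxr, 1667 bp from the nearest Fdxr start. All 4 of its footprints were shared in each library.

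The compact loci took much of their accessibility from neighbours. Of the 23 shared peaks within 1 kb of a TSS, 13 were nearest a TSS of the subunit gene itself and 10 one of another gene. In the Grin2c locus the strongest peak, 3.46 and 4.19, sat at the start of Fdxr, which encodes ferredoxin reductase. In that of Grin2d, a peak of 3.01 and 4.08 sat at the start of Kdelr1, which encodes a receptor that returns proteins to the endoplasmic reticulum, and a peak with a mean of 2.45 ± 0.0668 (SD, n = 2) at that of Grwd1. In that of Grin3b all 4 shared peaks lay downstream of the gene near the starts of Tmem259 and the noncoding Gm26243, the strongest with 3.47 and 3.33. None of these peaks reached a promoter of the subunit gene in whose locus it was counted.

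Over all 7 loci the animals shared 62 of 276 merged peaks (22.5%), fewer than the 52.2% over the genome, and 121 were found in replicate 1 alone and 93 in replicate 2 alone. The shared percentage was 14.4 at Grin2a, 22.2 at Grin1 and 24.3 at Grin2b, and from 40 at Grin2c to 80 at Grin3b in the others, so the 3 loci that crowded windows touch had the lowest percentages. Of the peaks of 1 library, 60 of the 121 in replicate 1 and 68 of the 93 in replicate 2 were under 0.3. At Grin2b these were 14 of 48 and 1 of 8. Of the shared peaks, 57 of 62 had signals within 1.5-fold of each other, 62 of 62 within 2-fold, and 32 were higher in replicate 2.

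**Figure D3:**
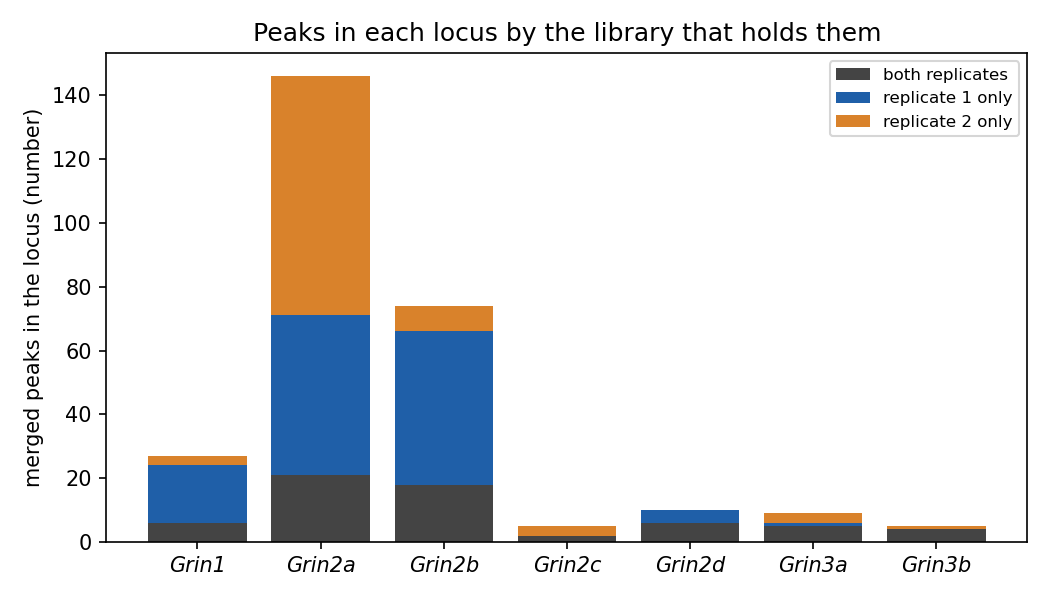
Number of merged peaks in each locus, stacked by whether they were found in both libraries (dark), in replicate 1 only (blue) or in replicate 2 only (orange). Grin2a has 75 peaks of replicate 2 only and 50 of replicate 1 only beside 21 shared ones, Grin2b has 48 of replicate 1 only, and the 4 shorter bars below 11 peaks belong to Grin2c, Grin2d, Grin3a and Grin3b.

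**Figure D4:**
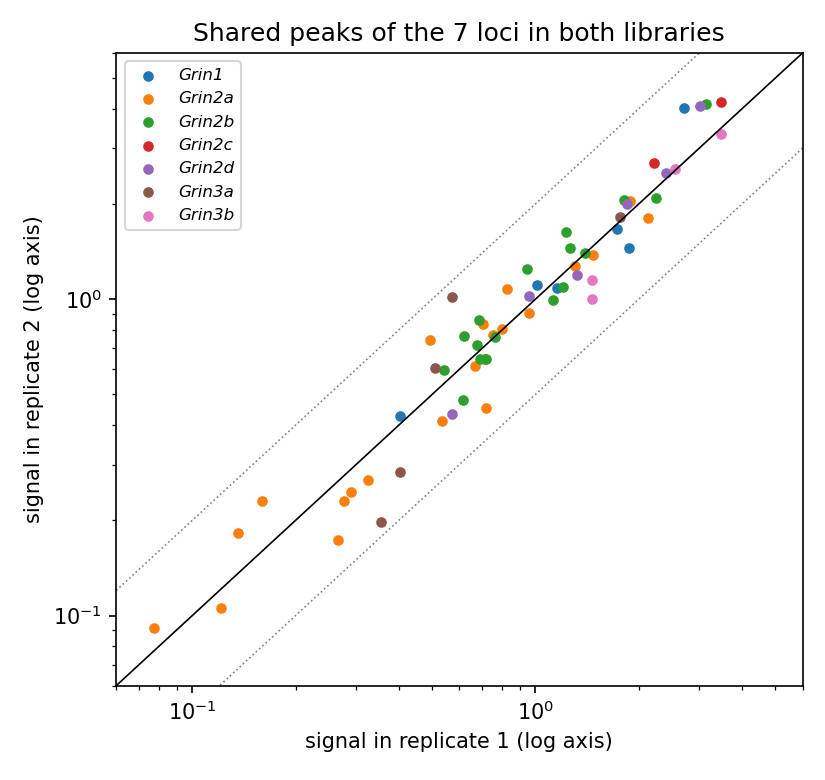
Signal in replicate 2 against replicate 1 on log axes for the 62 shared peaks, coloured by locus, with the line of equality and dotted lines at a ratio of 2. All points lie between the dotted lines, and the points farthest from equality belong to Grin3a.

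Footprints common to both animals were found in all 7 loci. Together the loci held 437 footprints in replicate 1 and 310 in replicate 2, of which 113 in each overlapped one of the other library, 25.9% and 36.5%, beside 39.5% and 47.0% genome-wide. Grin2a had 127 and 139 with 32 and 33 shared, Grin1 90 and 43 with 19 shared in each, and Grin2b 117 and 53 with 24 and 25 shared. At Grin2d 14 of 45 and 11 of 18 were shared, at Grin2c 8 of 8 and 7 of 17, at Grin3b 9 of 20 and 10 of 18, and at Grin3a 7 of 30 and 8 of 22. The lowest shared percentages were those of replicate 1 at Grin2b (20.5) and Grin1 (21.1), while both percentages of Grin3b (45.0 and 55.6) lay above the genome-wide ones. The shared footprints of the Grin3b locus all lay in its 4 shared peaks near the starts of Tmem259 and Gm26243. In the Grin2c locus the 2 shared peaks lay at or inside Fdxr.

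Consensus motifs were searched on both strands over the whole of the 62 shared peaks: SP/KLF (GGGCGG), AP-1 (TGANTCA), the neuronal E-box (CAGATG), NRF1 (GCATGCGC), CRE (TGACGTCA), EGR (GCGTGGGCG), the TATA box (TATAAA), REST (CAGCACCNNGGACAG), NFI (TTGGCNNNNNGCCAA), and CTCF and MEF2 by patterns with mixed bases. No motif of the set contains another. SP/KLF, bound by factors of GC-rich promoters, matched 40 times, of which 15 overlapped a footprint of both animals and 26 a footprint of either. The SP/KLF matches of the Grin2c and Grin3b loci all lay in peaks within 1 kb of a TSS of another gene. Some of those of the Grin1 and Grin2d loci did so too, and the count thus describes the loci and not the subunit promoters alone. All 3 CTCF matches, in the Grin1, Grin2c and Grin3a peaks printed above, overlapped footprints of both animals. E-boxes matched 20 times with 1 in a shared footprint, and AP-1 11 times with 0. NRF1 matched at 2 places and the TATA box at 3, with 0 in footprints of both, and CRE, EGR, REST, NFI and MEF2 had no match in these windows. A match is a sequence and not a bound site.

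For comparison with the genome, windows of 200 bp at peak summits were used. CTCF matched in 3 of 39 distal windows of the subunit loci (7.69%) and in 10.3% of all shared distal windows. AP-1 matched in 7 of 39 (17.9%) and 12.2%. The E-box matched in 4 of 39 (10.3%) and 24.0%. SP/KLF matched in 4 of 12 windows at the genes' own promoters (33.3%) and in 44.3% of all windows within 1 kb of a TSS. Median GC content was 51% in the distal windows of the loci and 51.5% in all distal windows. With 39 windows, many of which lie in the same 2 genes, these shares are a description. In the RefSeq table of promoters (GRCm38.p6), 4 of the genes were listed, Grin1, Grin2c, Grin2d and Grin3b. SP/KLF matched in Grin1 and Grin2c, where 35.7% of all listed promoters match. The TATA box, AP-1 and the E-box matched in Grin3b, beside 13.6%, 7.81% and 17.2% of all listed promoters.

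The AMPA and kainate receptor genes, which encode other ionotropic glutamate receptors, were read in the same way. Shared promoter peaks were found at 4 of 4 AMPA receptor genes (Gria1 to Gria4), which carry fast excitation, and at 5 of 5 kainate receptor genes (Grik1 to Grik5). The share over all protein-coding genes was 64.1%. Median promoter signals were 2.08 for the NMDA receptor genes, 1.86 for AMPA and 1.40 for kainate receptor genes, all below 2.95. Distal sites per 100 kb of locus numbered 2.97 for NMDA, 2.89 for AMPA and 2.95 for kainate receptor genes, and 2.73 over all protein-coding genes. Single genes spread far more than these families. Gria1 had 29 distal sites and Gria3 0, with promoter signals of 1.28 and 0.632, and Grik5 had 15 in a locus of 82.5 kb, percentile 99.5 among genes of its length. No test was made between families.

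**Figure D5:**
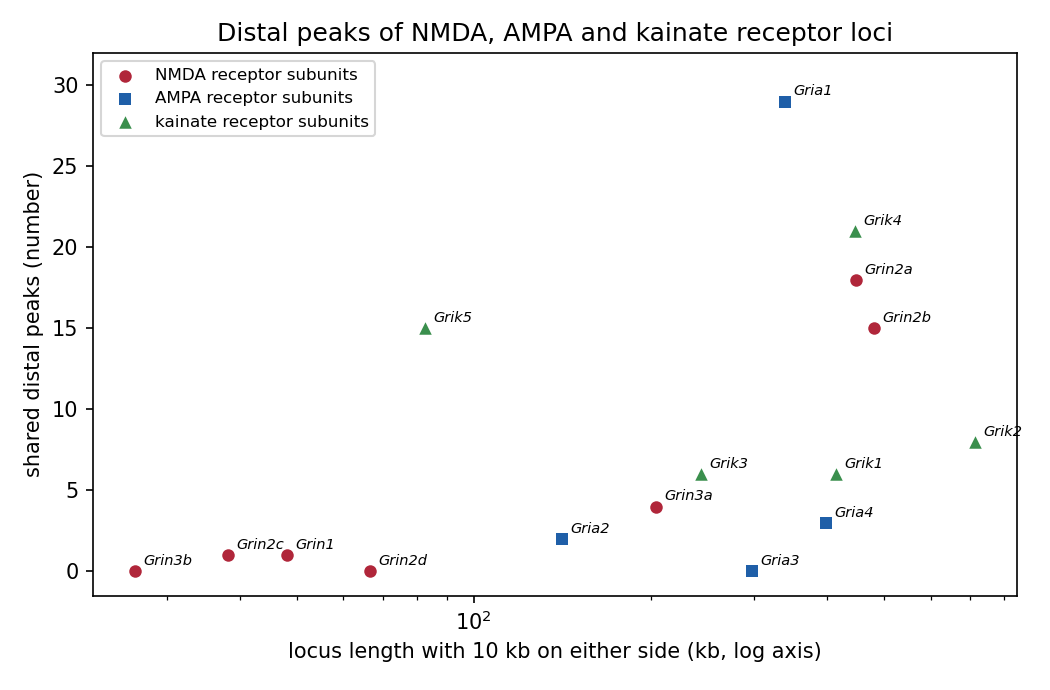
Number of shared distal peaks against locus length in kb on a log axis for the 7 NMDA, 4 AMPA and 5 kainate receptor genes, coloured and shaped by family. Grin2a and Grin2b lie near Grik4 at 15 to 21 peaks in loci of 446.4 to 480.3 kb, while Gria1 is highest at 29.

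Genes that act around the receptor had shared promoter peaks at 22 of 24, where 64.1% of all protein-coding genes have one. The lists are small and were chosen by name, and no test was made. All 7 scaffold and partner genes had one, among them Dlg4, which encodes PSD-95, at 1.87 and 2.10, and Dlg2, which encodes PSD-93, at 5.02 and 7.29. All 12 signalling genes had one. The highest were Ppp3ca, the calcineurin catalytic subunit, at 7.27 and 9.13, and Src, a kinase that phosphorylates GluN2 subunits, at 6.20 and 7.46. Over all 22 genes the lowest were Nos1, the neuronal nitric oxide synthase, at 0.891 and 0.716, and Dlg3. Dlg3, a scaffold gene that encodes SAP102, had 1.04 and 1.19. Camk2a, the alpha subunit of the kinase that binds GluN2B, had 2.70 and 3.31.

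Among the genes of co-agonist supply, 3 of 5 had a shared promoter peak, beside 64.1% of all protein-coding genes. Srr, the serine racemase that makes D-serine, had 3.89 and 3.90, Slc1a4, a neutral amino acid carrier, 2.85 and 3.18, and Slc6a9, the glycine transporter GlyT1, 1.99 and 1.60. Neither library had a promoter peak at Dao, which encodes D-amino acid oxidase, or at Slc7a10, the carrier Asc-1. Distal sites per 100 kb numbered 6.78 over the signalling genes, where Kalrn alone had 53, 4.40 over the co-agonist genes and 2.90 over the scaffold genes.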

How the data were processed

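DNase-seq of the left cortex of 2 female mice was analysed from the authors' calls. Per the labels, reads were placed on mm10; the names of the aligner and callers were not given in the sources used here. The deposited peak signal is the authors' height of the cut density, normalized to read depth. The authors called peaks per library, in a larger list (used here) and a smaller one. The deposited footprint tables give an FDR as a fraction, 0.01 throughout, and the deposited cut-rate tables give q-values under 0.05. The signal values were whole multiples of 1 step per library (within 0.05 of a step, values below 1000 steps), which as 1 cut per 1 M gives 206 M and 208 M cuts. Reads of the CAST/EiJ copy may align less often; alleles were not analysed here.

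Peaks overlapping by at least 1 bp were merged. Genes came from GENCODE M21 and sequence from GRCm38.p6, whose bases equalled all 32851 RefSeq promoters compared. A promoter peak had to be called in both libraries and reach within 500 bp of any TSS of the gene. Loci took peaks by their centre. Exon and intron numbers follow the transcripts Grin1-204, Grin2a-206, Grin2b-201, Grin2c-202, Grin2d-203, Grin3a-202 and Grin3b-201. Percentiles among 200 genes of closest locus length, medians and shares are descriptions. With 1 group there is no test, and SDs over 2 animals are rough. All 7 members were named. Pathway genes were counted, with the 2 highest, the 2 lowest and those without a promoter peak given. Dlg2, Dlg4, Camk2a, Kalrn, Srr, Slc1a4 and Slc6a9 were named after their values were seen. The 3 strongest peaks per locus were to be named, but some of those at Grin1, Grin3a and Grin3b are not given with their signal. Other sites were named after their values were seen. Members and lists were chosen with earlier results of these data known. Interval and motif code was tested on simulated data. Python 3.11.15, numpy 2.4.6, pandas 2.3.3 and matplotlib 3.10.9 were used. Part of the planned comparison with other receptor genes is not reported here. The alternatives tried included the smaller list, each library alone, other promoter widths, flanks and overlaps.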

Additional observations from a re-analysis of the deposited data

How the results depend on the processing

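With the smaller peak list the shared peaks of the loci fell from 62 to 40 and the distal ones from 39 to 19, and with the upper signal range of each library the distal ones to 23. Flanks of 50 kb gave 102 shared peaks, a mean of 230 shared footprints per library (113 with 10 kb, 74.5 with the gene body alone) and 47028 bp listed in both libraries (28535 with 10 kb). Taking 1 library alone drops the requirement that both animals show a site: leaving out 1 replicate gave 161 to 189 peaks, 131 to 154 distal peaks, 310 to 437 footprints and 59942 to 78985 listed bp, and median promoter signals of 1.82 to 2.13 (2.08 with both). Using only the outermost 5′ end gave a median of 1.95. The number of genes with a promoter peak, 5, ranged from 4 to 7 over the alternatives, with 7 in replicate 2 alone. Dropping peaks under 0.3 in crowded windows, an alternative chosen after seeing the data, left 54 shared and 31 distal peaks. Of the single-gene values, 20 of promoter signal stayed within their spread and 3 moved, and 40 distal counts stayed and 23 moved. Promoter values of 1 library alone lie within the spread of both by arithmetic, so their staying says nothing about stability. Alternatives under which Grin2d had no shared promoter peak are not among these values. Beyond the restrictions each alternative imposes, the cause was not tested. No paired analysis was possible because the libraries form 1 group. The depth inferred from the signal step, 206 M and 208 M cuts, differed little between the libraries, and 2 animals give a coarse measure of spread.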
